A study of Mus musculus with 4 samples.

Results

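A set of 10 genes of the transforming growth factor beta (TGF-beta) and bone morphogenetic protein (BMP) system was followed in the mouse colon carcinoma line MC38. They were chosen by name as ligands and receptors of this superfamily, and all 10 were among the 24346 gene symbols measured. RNA sequencing gave 4 libraries, of which 2 carry the label wild type (WT) and 2 the label Arid5a gene knockout (KO), with no treatment named. The labels do not say how the knockout was made, whether it is 1 clone, or whether the 2 libraries of a group came from separate cultures, so p-values measure only the spread between these libraries. Arid5a, the targeted gene, was at 0.225 and 0.124 FPKM in the WT-labelled libraries and at 2.16 and 1.77 FPKM in the KO-labelled ones. Its RNA was thus higher, not lower, under the KO label. Depending on the transcript, this is about 0 to 18 fragments against 5 to 117. Exchanged labels and a knockout that leaves the transcript cannot be told apart here. Every direction here therefore refers to the labels as deposited.

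TGF-beta ligands are secreted in a latent form, and once released they bring together the type II receptor Tgfbr2 and the type I receptor Tgfbr1, which phosphorylate the SMAD proteins Smad2 and Smad3. BMPs act through other pairs of type I and type II receptors, among them Bmpr1a and Bmpr2, and through Smad1, Smad5 and Smad9. In colon carcinoma, TGF-beta made by tumour and stromal cells is known for restraining T cells and for promoting mesenchymal traits.

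FPKM, fragments per kilobase of transcript scaled to library depth, was the measure. Estimated depth in units of 1e6 fragments was 15.3 and 11.7 for the WT label and 10.2 and 11.3 for the KO label. None of 12 markers of intestinal epithelium reached 1 FPKM in any library, with Epcam, Cdx1, Cdx2 and Cldn7 at 0 in all of them. The summed level of 12 leukocyte markers was 18.1 and 21.8 FPKM in the WT-labelled libraries and 14.7 and 15.7 FPKM in the KO-labelled ones, and its members did not move together. The macrophage marker Cd68 fell from 6.14 and 5.80 FPKM to 1.03 and 1.67 FPKM (limma, adjusted p = 0.00118), and the neutrophil gene S100a8 was at 1.77 and 4.61 FPKM against 1.06 and 0 FPKM (0.0489, called in 4 of 12 alternatives and not without KO replicate 2, at 0.15). Cd14, a co-receptor for bacterial lipopolysaccharide and the largest contributor in every library, was at 9.18 and 10.1 FPKM against 12 and 13.8 FPKM (limma, adjusted p = 0.0175, but 0.078 without WT replicate 1 and 0.055 without KO replicate 2). The pan-leukocyte marker Ptprc was at 0.0655 and 0.0854 FPKM against 0 in both KO-labelled libraries. For 9 fibroblast markers the summed level was 40.3 and 36.6 FPKM against 20.7 and 20.6 FPKM, but without Col3a1 it was 11 and 10.2 FPKM against 13.9 and 13.8 FPKM. Col3a1 fell from 29.3 and 26.4 FPKM to 6.78 and 6.86 FPKM, and Col1a1 rose from 0.275 and 0.246 FPKM to 2.14 and 1.95 FPKM (limma, adjusted p of 0.000107 and 0.000936). Col1a1 passed the filter of a mean of 1 FPKM only through the KO-labelled libraries, and S100a8 only through those labelled WT. Dpt, below the filter, was at 0.228 and 0.119 FPKM against 1.22 and 0.919 FPKM, and Pdgfra was not called (log2 change -0.01, limma adjusted p = 0.945). The part of these opposite differences in the results below was not tested, and in bulk RNA fewer cells of a type and less RNA per cell cannot be told apart.

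Promoter sequence, printed because the TGF-beta ligand genes moved in different directions, was at hand for Tgfb1 and Tgfb2 (RefSeq, GRCm38.p6). Each run is the 250 bases before the annotated start, with matches on either strand to GGGCGG (a box bound by Sp1), CAGAC (a SMAD box), CACGTG (an E-box) and TGACGTCA (a cyclic AMP response element) in capitals. Tgfb1 lies at chr7:25686752-25687001 on the plus strand and Tgfb2 at chr1:186705990-186706239 on the minus strand.
Tgfb1: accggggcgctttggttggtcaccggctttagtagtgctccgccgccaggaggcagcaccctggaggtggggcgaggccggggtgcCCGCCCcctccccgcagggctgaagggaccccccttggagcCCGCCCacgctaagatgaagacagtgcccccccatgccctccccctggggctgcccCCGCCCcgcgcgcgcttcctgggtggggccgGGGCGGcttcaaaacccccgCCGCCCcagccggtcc
Tgfb2: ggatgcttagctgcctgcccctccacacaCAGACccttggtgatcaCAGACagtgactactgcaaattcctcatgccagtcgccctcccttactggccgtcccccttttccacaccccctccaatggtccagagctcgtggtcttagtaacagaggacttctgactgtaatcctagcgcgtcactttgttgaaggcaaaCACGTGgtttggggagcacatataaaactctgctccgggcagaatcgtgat
The Tgfb1 window held 5 matches to GGGCGG and none to the other motifs. That of Tgfb2 held 2 matches to CAGAC and 1 to CACGTG, and none to GGGCGG. Among all 32851 such windows of the same length, 32.7% held GGGCGG, 42.2% CAGAC, 6.02% CACGTG and 1.55% TGACGTCA. A match is a description of these letters only.

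At issue is how gene expression differs between MC38 cells with and without a knockout of Arid5a. The ligand Tgfb3 and the BMP receptor Bmpr1a were higher in the KO-labelled libraries, and the ligand Tgfb1 and the co-receptor Tgfbr3 were lower. Of the 10 genes, 8 reached a mean of 1 FPKM over the libraries and were tested, 2 rose, 2 fell, and 4 did not pass the test (limma, Benjamini-Hochberg adjusted p under 0.05 over all tested genes). Across all 10827 tested genes 47.6% were called, 24.4% higher and 23.3% lower, so 4 of 8 is close to the background. The total of 5159 called genes was 3377 without WT replicate 2. Scaling the libraries to the same FPKM sum turned the share of calls that were higher from 51.2% to 37.4%. Groups did not overlap for 6 of the 8 tested genes, against 77.5% of all tested genes. The median log2 change of the 8 was 0.05, beside 0.006 over all tested genes.

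**Figure D1:**
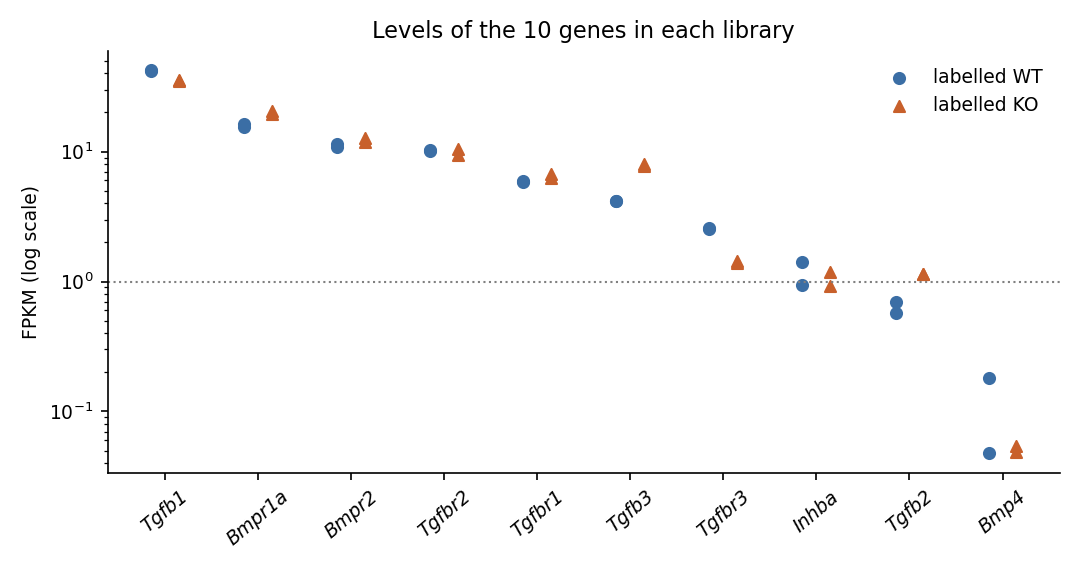
FPKM of the 10 genes (log axis) in each library, circles for the 2 WT-labelled libraries and triangles for the 2 labelled KO; the dotted line is 1 FPKM. Tgfb1 was highest in every library and Bmp4 lowest in every library, and Tgfb3 lay near 4 FPKM in the WT-labelled libraries and near 8 FPKM in the KO-labelled ones.

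The most abundant of the ligand transcripts was Tgfb1, which encodes the main TGF-beta isoform of most tissues. It stood at 41.9 and 42.5 FPKM in the WT-labelled libraries and at 35.8 and 34.7 FPKM in the KO-labelled ones. Both KO-labelled libraries were below both labelled WT. Its log2 change was -0.25 ± 0.036 (SE; adjusted p = 0.00425 by limma), a ratio of mean FPKM of 0.835. The gene is on chromosome 7 (25687002 to 25705077, plus strand; GENCODE M21, GRCm38, as for all coordinates here).

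Tgfb3, an isoform known for its part in palate and lung development and in wound healing, moved the other way and by more. Its level was 4.18 and 4.14 FPKM against 7.74 and 8.02 FPKM, so that the groups lay far apart relative to the spread within each. With 1 annotated coding transcript, these levels correspond to about 203 and 154 fragments against 252 and 290. The log2 change was 0.78 ± 0.063 (SE; adjusted p = 0.000799 by limma), a ratio of mean FPKM of 1.89 and the largest absolute change of the 8. Tgfb3 lies on chromosome 12 from 86056745 to 86079041 on the minus strand, and exons of the antisense genes Gm37804 and Gm48008 overlap parts of its exons. Neither antisense symbol was among those measured, and the handling of strand is not given in the sources used here.

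Tgfb2, the isoform that binds poorly to Tgfbr2 without a co-receptor, was at 0.576 and 0.695 FPKM in the WT-labelled libraries and at 1.14 and 1.14 FPKM in the KO-labelled ones. The groups did not overlap, and the ratio of the means was 1.80. These levels correspond to about 27 to 43 fragments in the WT-labelled libraries and 38 to 64 in the KO-labelled ones, depending on the transcript. With a mean of 0.889 FPKM the gene was below the filter. In the fit without a filter, the gene changed by 0.39 ± 0.072 on the log2 scale (SE; adjusted p = 0.0208 by limma over 16191 genes). Tgfb2 lies on chromosome 1 from 186622792 to 186705989 on the minus strand, and the antisense gene Gm29491 overlaps 124 bases of its exons.

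The 3 TGF-beta isoforms can be summed, since FPKM is per transcript length. Their sum was 46.7 and 47.3 FPKM in the WT-labelled libraries and 44.7 and 43.9 FPKM in the KO-labelled ones. Tgfb1 made up 89.8% and 89.8% of it against 80.1% and 79.1%, a difference of -10.2 percentage points. The Tgfb3 share was 8.95% and 8.75% against 17.3% and 18.3%, and that of Tgfb2 was 1.23% and 1.47% against 2.55% and 2.61%. The groups did not overlap for any of these shares. An exact two-sided permutation test of 2 libraries against 2 cannot go below p = 0.333, and each share gave that value, so none of these differences can pass a threshold by it. Expressed as a ratio, Tgfb1 exceeded Tgfb3 by 10 and 10.3 times in the WT-labelled libraries and by 4.63 and 4.33 times in the KO-labelled ones.

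**Figure D2:**
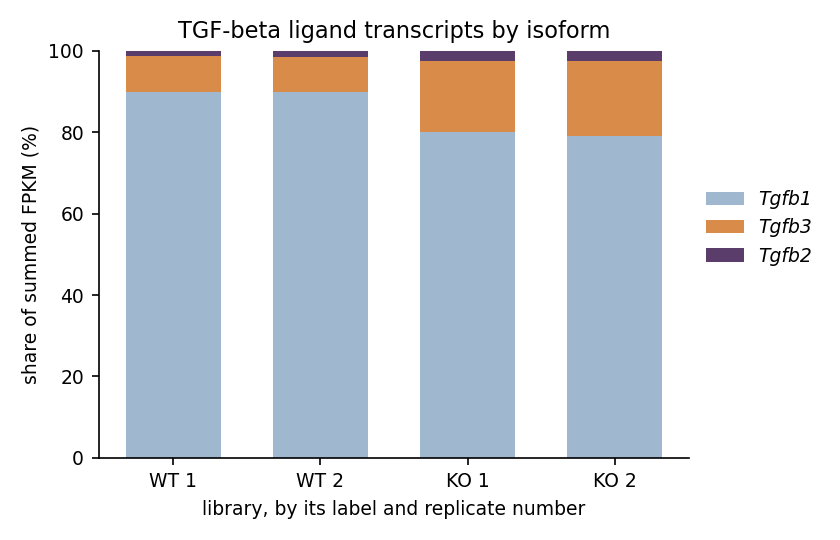
Share (%) of each TGF-beta ligand gene in the summed FPKM of Tgfb1, Tgfb2 and Tgfb3, 1 bar per library. The Tgfb3 part was 8.75% to 8.95% in the WT-labelled libraries and 17.3% to 18.3% in the KO-labelled ones.

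Both remaining ligands were near or below the filter. Inhba encodes the beta A subunit of activin A, a ligand that shares Smad2 and Smad3 with TGF-beta. It was at 0.936 and 1.41 FPKM against 1.18 and 0.928 FPKM, with overlapping groups. Its log2 change was -0.08 ± 0.15 (SE; adjusted p = 0.695 by limma), with a 95% interval from -0.46 to 0.30, and its sign turned without WT replicate 2 (0.082) and without KO replicate 2 (0.010). Bmp4, a BMP of gut mesenchyme, was at 0.182 and 0.0475 FPKM against 0.0544 and 0.0490 FPKM. After correction for depth, these values stood in the ratio 5 to 1 to 1 to 1, about 4 to 5 fragments in WT replicate 1 and 1 in each other library, and a difference was not detectable at this depth. Inhba is on chromosome 13 (16011851 to 16031621, plus strand) and Bmp4 on chromosome 14 (46383520 to 46390669, minus strand).

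The 2 signalling receptors for TGF-beta did not pass the test. Tgfbr2, the type II receptor that binds ligand first, was at 10.2 and 10.1 FPKM against 10.5 and 9.33 FPKM. The values of the KO-labelled libraries lay on both sides of those labelled WT. Its log2 change was -0.03 (limma, adjusted p = 0.745; 95% interval -0.21 to 0.15), and its sign turned without KO replicate 2 (0.046). Tgfbr1, the type I kinase that phosphorylates Smad2 and Smad3, was at 5.90 and 5.81 FPKM against 6.76 and 6.30 FPKM. Its groups did not overlap, but the log2 change of 0.13 was not called (limma, adjusted p = 0.15; 95% interval -0.03 to 0.30). Tgfbr2 exceeded Tgfbr1 by 1.72 and 1.73 times in the WT-labelled libraries and by 1.55 and 1.48 times in the KO-labelled ones. Tgfbr2 lies on chromosome 9 (116084293 to 116175360, minus strand) and Tgfbr1 on chromosome 4 (47353222 to 47414931, plus strand).

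Tgfbr3, also called betaglycan, is a co-receptor that presents TGF-beta isoforms, above all the product of Tgfb2, to Tgfbr2. It was the TGF-beta receptor gene that fell, from 2.53 and 2.60 FPKM to 1.45 and 1.38 FPKM. Both KO-labelled libraries were well below both labelled WT. Depending on the transcript, the levels correspond to about 15 to 227 fragments in the WT-labelled libraries and 7 to 92 in the KO-labelled ones. The log2 change was -0.56 ± 0.089 (SE; adjusted p = 0.00581 by limma), a ratio of mean FPKM of 0.551. Tgfbr2 exceeded Tgfbr3 by 4.03 and 3.87 times in the WT-labelled libraries and by 7.25 and 6.78 times in the KO-labelled ones. Tgfbr3 lies on chromosome 5 from 107106570 to 107289629 on the minus strand. An overlapping gene on the same strand, Gm43422, shares 297 bases of exon with it and was not among the symbols measured.

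BMP receptors were the most abundant receptor genes of the 10. Bmpr1a, a type I BMP receptor whose inherited loss causes juvenile polyposis in humans, was at 15.5 and 16.3 FPKM in the WT-labelled libraries and at 19.6 and 20.4 FPKM in the KO-labelled ones. The groups did not overlap, and the log2 change was 0.31 ± 0.050 (SE; adjusted p = 0.00603 by limma), a ratio of mean FPKM of 1.26. Its type II partner Bmpr2 was at 10.9 and 11.4 FPKM against 12.8 and 11.9 FPKM. These groups did not overlap either, but the log2 change of 0.13 was not called (limma, adjusted p = 0.117; 95% interval -0.02 to 0.28). Bmpr1a exceeded Bmpr2 by 1.42 and 1.44 times in the WT-labelled libraries and by 1.53 and 1.72 times in the KO-labelled ones. Bmpr1a lies on chromosome 14 (34410734 to 34503341, minus strand), where the antisense gene Gm17110 overlaps 290 bases of its exons, and Bmpr2 on chromosome 1 (59763400 to 59879014, plus strand).

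**Figure D3:**
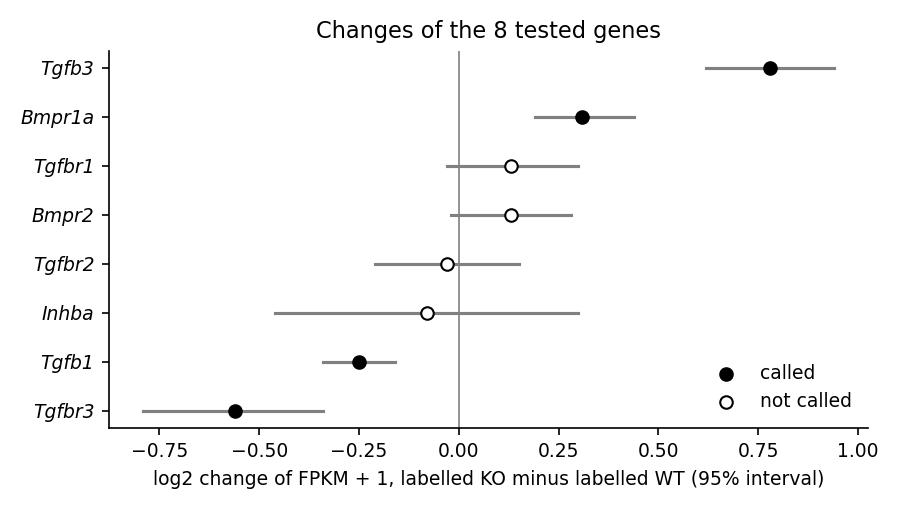
Log2 change of FPKM + 1 (KO-labelled libraries minus WT-labelled) of the 8 tested genes, with 95% intervals from limma; filled points were called. The intervals of Tgfb3 and Bmpr1a lay above 0, those of Tgfb1 and Tgfbr3 below 0, and the other 4 included 0.

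In the WT-labelled libraries, the order of levels was Tgfb1, Bmpr1a, Bmpr2, Tgfbr2, Tgfbr1, Tgfb3, Tgfbr3, Inhba, Tgfb2 and Bmp4. No neighbours in this order overlapped between the 2 libraries. In the KO-labelled libraries, Tgfb3 stood above Tgfbr1 and Tgfb2 above Inhba, and the ranges of Tgfb2 and Inhba overlapped. The ratio of Tgfb3 to Tgfbr1 was 0.708 and 0.712 in the WT-labelled libraries and 1.14 and 1.27 in the KO-labelled ones. Among the 10826 other tested genes, the profiles most like that of Tgfb3 were those of Rab39b, a small GTPase, Eno1, a glycolytic enolase, and Clic4, a chloride intracellular channel protein. Their centred log2 values differed from those of Tgfb3 by a root mean square of 0.0084, 0.0089 and 0.012 over the 4 libraries. Their log2 changes were 0.79, 0.78 and 0.78. At a pseudocount of 0.1, Tgfb3 changed by 0.905 and Rab39b by 0.912, but Eno1 by 0.785 and Clic4 by 0.788. The likeness of Eno1 and Clic4 thus depends on the pseudocount of 1.

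Around these 10 genes, 112 further genes of the pathway were sorted by role into 6 lists. Of them 55 were tested, 28 rose and 9 fell, or 67.3% called against 47.6% of all tested genes. The lists were chosen with earlier results of these data known and no set test was run, so the higher share is a description only. The number that fell was 5 without WT replicate 2. Their median log2 change was 0.22, beside 0.006 over all tested genes. A mean under 1 FPKM in 1 of the groups was found for Inhbe, Acvr2b, Smad6, Acvrl1 and Dcn, which passed the filter through the other group. All 5 are among the called genes.

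Other ligands were mostly silent. Of 28, 12 were at 0 in all 4 libraries and 5 were tested, with 2 rising and 1 falling. That is 60% called, against 47.6% of all tested genes. The BMP genes of this list were all below the filter. Bmp2, the highest of them, was at 0.911 and 1.24 FPKM against 0.781 and 0.365 FPKM. Bmp7 went the other way, from 0.0188 and 0 FPKM to 0.196 and 0.228 FPKM. Gdf15, a stress-induced member of the superfamily that signals through a receptor of another family, rose from 3.79 and 4.26 FPKM to 11 and 10.6 FPKM (log2 change 1.23 ± 0.074 SE; adjusted p = 0.000355 by limma). Inhbe, the activin beta E subunit, rose from 0.878 and 0.572 FPKM to 1.82 and 2.36 FPKM (0.84; 1.42 at a pseudocount of 0.1). Lefty1, an inhibitor of Nodal signalling, fell from 3.68 and 3.95 FPKM to 2.71 and 2.51 FPKM (-0.42), and its call was lost without WT replicate 2 (limma, adjusted p = 0.0669). Nodal itself was at 0 in all 4 libraries.

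Among 15 other receptors and co-receptors, 6 were tested, of which 3 rose and 2 fell (83.3% called, against 47.6% of all tested genes). Acvrl1, the type I receptor known as ALK1, fell from 2.46 and 2.55 FPKM to 0.664 and 0.663 FPKM (log2 change -1.07 ± 0.096 SE; adjusted p = 0.00107 by limma; -1.77 at a pseudocount of 0.1). Rgmb, a BMP co-receptor, fell from 9.18 and 8.57 FPKM to 4.37 and 2.92 FPKM (-1.10). The 3 that rose are receptors of activins. Acvr2b rose by 0.74 (1.35 at a pseudocount of 0.1), Acvr2a by 0.32 and Acvr1b by 0.28. Whichever single library was left out, neither Acvr2a (limma, adjusted p from 0.0524 to 0.135) nor Acvr1b (0.1 to 0.146) was called, and over all alternatives they were called in 7 of 13 and 6 of 13. Acvr1, a type I receptor for BMPs and activins, was at 13.1 and 12.1 FPKM against 13.2 and 12.5 FPKM and was not called (limma, adjusted p = 0.754). Rgma, on the same list as Rgmb but below the filter, was at 0.404 and 0.327 FPKM against 1.04 and 0.803 FPKM. In the fit without a filter, the log2 change of Rgma was 0.49 (limma, adjusted p = 0.0182).

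Genes that store and activate latent TGF-beta were called in 6 of 7 tested cases, with 4 rising and 2 falling. This share was 85.7%, beside 47.6% over all tested genes. Fbn1 encodes fibrillin-1, a matrix scaffold for latent complexes, and rose from 4.40 and 4.41 FPKM to 11 and 11.1 FPKM (log2 change 1.16 ± 0.058 SE; adjusted p = 0.000219 by limma). Itgav, the alpha v integrin chain that releases TGF-beta from its latent form, rose from 15.1 and 15.2 FPKM to 28.1 and 26.3 FPKM (0.80). Its activating partner chains Itgb6 and Itgb8 were at or below 0.437 FPKM in every library. The latent TGF-beta binding proteins parted, with Ltbp3 at 0.29, Ltbp1 at 0.14 and Ltbp4 at -0.22. Furin, the protease that cleaves TGF-beta precursors, changed by -0.18. The call of Ltbp1 was lost when any single library was left out (limma, adjusted p from 0.0537 to 0.17) and when libraries were scaled to the same FPKM sum (0.222), and it held in 6 of 14 alternatives. Ltbp4 missed the threshold on omission of WT replicate 1 (0.106), of WT replicate 2 (0.0801) and of KO replicate 1 (0.0706), and Furin on omission of WT replicate 2 (0.103) and of KO replicate 1 (0.0712).

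Of 16 extracellular antagonists 6 were tested, of which 3 rose and 2 fell (83.3% called, against 47.6% of all tested genes). Grem1, gremlin 1, which binds BMPs such as the product of Bmp4 and keeps them from Bmpr1a, was at 77.2 and 78.6 FPKM in the WT-labelled libraries and at 36 and 35.9 FPKM in the KO-labelled ones. Its log2 change was -1.09 ± 0.032 (SE; adjusted p = 6.4e-05 by limma). Grem1 exceeded Bmpr1a by 4.99 and 4.82 times in the WT-labelled libraries and by 1.84 and 1.76 times in the KO-labelled ones. Dcn, a proteoglycan that binds TGF-beta, fell from 5.13 and 4.53 FPKM to 0.613 and 0.993 FPKM (-1.70). Bmper, a secreted modulator of BMPs, rose by 0.74, Dand5, an inhibitor of Nodal, by 0.44 and the activin-binding protein Fstl3 by 0.25. The call of Dand5 was lost without WT replicate 2 (limma, adjusted p = 0.0536), and Fstl3 was not called when any single library was left out (0.0577 to 0.171) but was called in 6 of 14 alternatives in all.

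All 21 SMADs and regulators were tested, of which 10 rose and 1 fell. The share called, 52.4%, was close to the 47.6% of all tested genes. Smad6, which inhibits BMP receptors, rose from 0.683 and 0.369 FPKM to 2.22 and 2.53 FPKM (log2 change 1.15; 2.03 at a pseudocount of 0.1). Skil, a repressor of SMAD complexes, rose from 5.22 and 5.56 FPKM to 11.1 and 11.2 FPKM (0.93). Smad1, a transducer of BMP receptors, rose by 0.48 and Fkbp1a, which binds type I receptors at rest, by 0.44. Smad5, a close relative of Smad1, was the 1 that fell (-0.22), and its call was lost without WT replicate 2 (limma, adjusted p = 0.127), KO replicate 1 (0.076) or KO replicate 2 (0.0652). Smad2 and Smad3 were not called (limma, adjusted p of 0.254 and 0.143).

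Of 18 response genes 10 were tested, of which 6 rose and 1 fell, with a median log2 change of 0.37. Calls made up 70%, against 47.6% of all tested genes. Id1, an inhibitor of differentiation and a direct BMP target, rose from 30.3 and 31.3 FPKM to 78.3 and 74.0 FPKM (log2 change 1.28 ± 0.042 SE; adjusted p = 0.000104 by limma). Id2 rose by 0.76 and the transcription factor Bhlhe40 by 0.88. Tsc22d1, a gene named for its stimulation by TGF-beta, fell from 77.1 and 78.0 FPKM to 51.4 and 50.9 FPKM (-0.59). Pmepa1, a TGF-beta target that restrains the pathway, was listed at 0 in both WT-labelled libraries and at 1.84 and 1.64 FPKM in the KO-labelled ones. Its mean of 0.871 FPKM was below the filter. In the fit without a filter, its log2 change was 1.45 ± 0.067 (SE; adjusted p = 0.00109 by limma). The targets Ctgf and Tgfbi were at or below 0.0790 FPKM in every library.

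**Figure D4:**
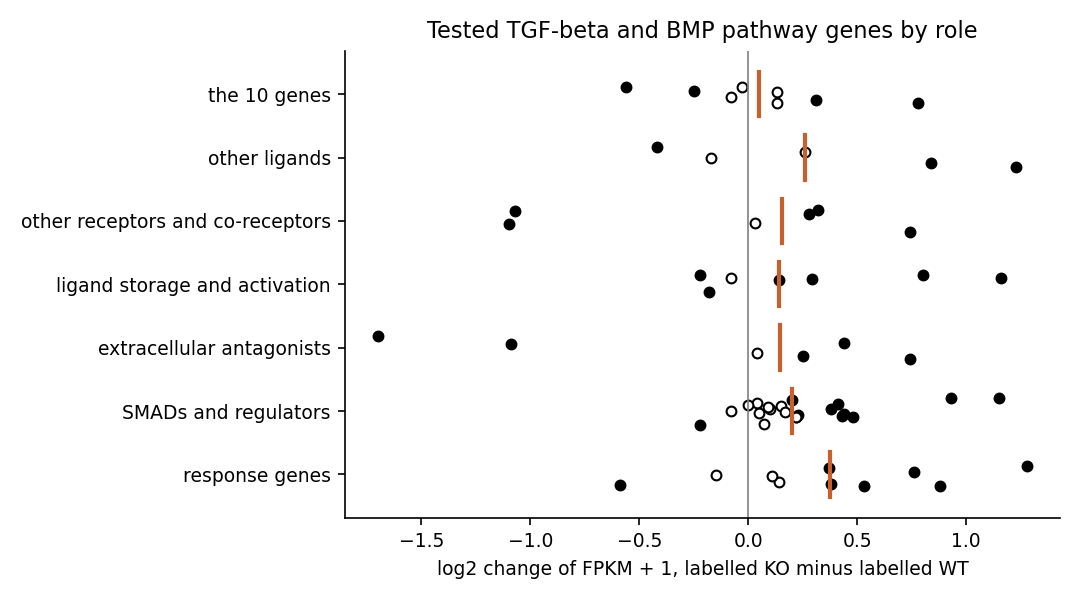
Log2 change (KO-labelled libraries minus WT-labelled) of each tested gene, by role; filled points were called, and the vertical bar of each row is its median. Grem1 and Dcn lie lowest among the antagonists, and the response genes have the highest median, 0.37.

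**Figure D5:**
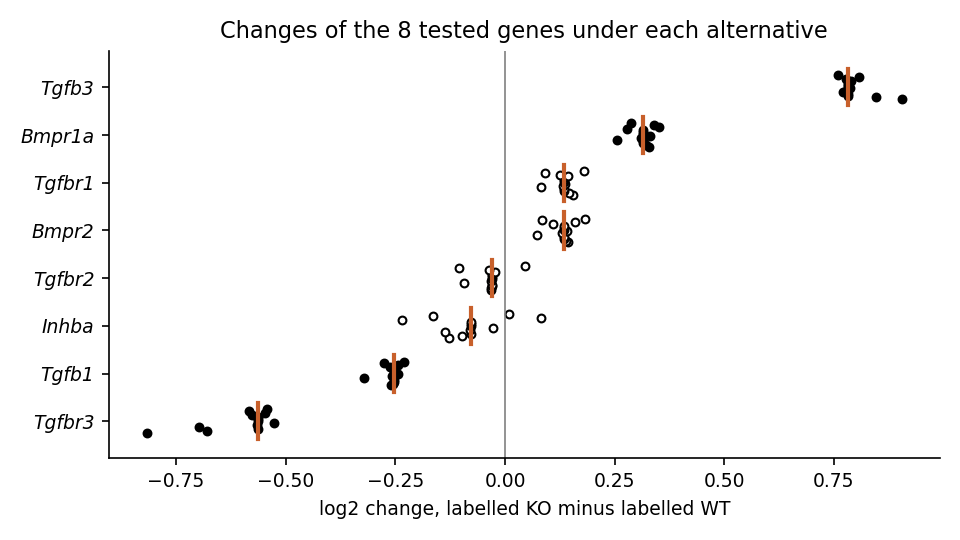
Log2 change of the 8 tested genes under each alternative way of processing (points; filled where called) and as reported (bars). Tgfb3 stayed between 0.76 and 0.91, Bmpr1a between 0.26 and 0.35, Tgfb1 between -0.32 and -0.23 and Tgfbr3 between -0.82 and -0.53.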

How the data were processed

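RNA came from an RNeasy extraction and libraries from a stranded TruSeq mRNA kit, per the labels' protocols. TopHat2 2.0.13 and Bowtie2 2.2.3, together with SAMtools 0.1.19 and Cufflinks 2.2.1, are listed for build mm10 in the submitters' processing notes. Settings, annotation and strand handling are not given in the sources used here. A table of FPKM per library was deposited by the authors. FPKM (fragments scaled by transcript length and library depth) lets genes be compared per length, but a change in abundant transcripts moves every other value, and Cufflinks estimates values over isoforms, so no count model was used.

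Depth was estimated from low values. At or below 0.1 FPKM, at least 90.8% of the values of 1 library over another were within 1% of a fraction of whole numbers up to 6. Lengths from GENCODE M21 then gave fragment numbers, a fit in which 63 of 107 genes with 1 transcript were within 3% of the line.

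Values were taken as log2(FPKM + 1), a scale that understates changes near or below 1 FPKM. Testing used limma 3.58.1 in R 4.3.3 (lmFit, eBayes with trend, no block, two-sided) on genes averaging 1 FPKM or more. Calls required a Benjamini-Hochberg adjusted p under 0.05 over all tested genes. "Rose" and "fell" are used of called genes in the KO-labelled libraries. The procedure was also run on simulated data with normal noise and few changed genes. Such data cannot show how it handles the many calls here or differences between cultures. Errors are standard errors of log2 changes.

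Named genes were the 10 members, Arid5a, up to 4 called genes per list with the largest absolute change, and the 3 genes most like Tgfb3. Other genes were named after their values were seen. The members and lists were chosen with earlier results of these data known. Alternatives changed the pseudocount, the filter, the scaling (3 others), the variance moderation, the use of the replicate number as a block, or left out 1 library. KPC cells, also named in the design, were not analysed here. RefSeq windows matched 8 of the 10 genes by symbol, all but Tgfb3 and Tgfbr3.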

Additional observations from a re-analysis of the deposited data

How the results depend on the processing

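With 2 libraries a group, precision rests on limma's shared estimate of spread, and fragment numbers limit Bmp4, Tgfb2, Inhba and Tgfbr3. Each of Tgfb1, Tgfb3, Tgfbr3 and Bmpr1a was called in the same direction in every alternative in which it was tested (14, 14, 13 and 14), and Tgfbr1, Tgfbr2, Inhba and Bmpr2 in none. With a filter of 5 FPKM, 1 of the 10 genes was lower, because Tgfbr3 was no longer tested. With libraries scaled to the same FPKM sum, Tgfb2 passed the filter and was called (log2 change 0.45, limma adjusted p = 0.0428). That sum was above those of the libraries as deposited (600844 to 638120), so all values rose while the filter and pseudocount stayed at 1. The filter was thereby looser, with 11286 genes tested, and the entry of Tgfb2 is not an effect of equal sums alone. Leaving out 1 library gave 3377 to 4109 called genes, 19 to 23 pathway genes higher and 5 to 8 lower, and a change of the Tgfb1 share from -10.7 to -9.67 percentage points. Cell type markers aside, the 36 called genes named had 490 values under the alternatives. Of these, 451 stayed called in the same direction and 39 lost the call, with no reversal. With the replicate number as a block, 4673 genes were called, with 2 of the 10 genes higher and 2 lower. Deviations of libraries with the same number correlated at 0.138 across 10827 genes, and the labels give no pairing. Among the genes named, the block ended the calls of Acvr1b (limma, adjusted p = 0.071), Ltbp1 (0.0527), Fstl3 (0.0662) and the marker S100a8 (0.107).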
